A study of Mus musculus with 11 samples.

Results

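The genes described here are 33 that mark astrocytes and carry out their housekeeping in the adult brain. They were taken by symbol from a list, and all 33 were found among the 30681 genes of a count table from mouse hippocampus. The list covers glutamate uptake (Slc1a2, Slc1a3, Glul), gap junctions (Gja1, Gjb6), and membrane proteins of end-feet and ion transport (Aqp4, Mlc1, Hepacam, Kcnj10, Slc4a4, Atp1b2). It also holds amino acid exchangers (Slc7a10, Slc7a11), and regulators and signalling proteins (Sox9, Fgfr3, Ntsr2, S100b, Ndrg2, Dio2, Agt). The rest are metabolic genes (Aldh1l1, Aldoc, Acsl6, Acsbg1, Ppp1r3c), surface proteins (Cldn10, Gpc5) and secreted proteins (Apoe, Clu, Mfge8, Sparcl1, Cpe, Htra1).

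RNA from 1 hippocampus per library was sequenced as polyadenylated RNA from mice aged 6 months. There were 6 libraries labelled as a conditional knockout (cKO) of Dclk3, a doublecortin-like kinase gene, and 5 labelled wild type (WT). A conditional knockout deletes a gene in cells that express a recombinase, but the recombinase and the exons it removes are not named in the sources used here. Whether each library is from its own animal is not stated in the labels, so the p-values measure the spread between these samples, which may be technical.

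Astrocytes clear glutamate and potassium from around synapses, pass small molecules to each other through connexin channels, and wrap blood vessels with end-feet rich in water channels. They convert glutamate to glutamine, make cholesterol-carrying lipoproteins and store the brain's glycogen. In the hippocampus they surround the synapses of the dentate gyrus and the CA fields. Astrocytes that react to injury are known for raised Gfap and Vim, both intermediate filament genes.

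Total counts per library ran from 24001828 to 35674490. Levels are given as CPM, a gene's count scaled to a common library size. Dclk3 itself had 15.4, 21.1, 21.1, 25.7, 18.2 and 19.2 CPM in replicates 1 to 6 labelled cKO, against 19.6, 21.03, 22.3, 28.1 and 21.05 CPM in WT replicates 1 to 5, so the groups overlapped. It had a mean of 20.1 ± 3.44 CPM in cKO-labelled libraries, and of 22.4 ± 3.31 CPM in WT libraries (SD, n = 6 and 5). The difference, -0.15 ± 0.12 on the log2 scale (SE), was not past the threshold of 0.05 (edgeR quasi-likelihood F test, Benjamini-Hochberg adjusted p = 0.727), so the group is named by its label below. Going by Xist and the summed level of 4 Y-linked genes (96.9 to 123 CPM in 8 libraries, 0.913 to 3.59 CPM in the other 3), all 6 libraries labelled cKO and WT replicates 2 and 5 were male, and WT replicates 1, 3 and 4 were female. Sex and genotype are therefore partly confounded, and values against the 2 male WT libraries are given for some of the members. In bulk tissue, fewer cells of a type and less RNA per cell cannot be told apart.

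All 33 members were well detected, with at least 758 counts in every library, and all 33 passed the filter on low counts. Per kilobase of exon, the mean level over the 11 libraries spanned 312-fold. The length is that of all annotated exons of a gene together, so the order and the span depend on the annotation. Cpe, a peptide-processing enzyme that neurons also make, was highest at 1419 CPM per kilobase. Apoe, the main apolipoprotein of the brain, followed at 1339, Sparcl1, a secreted matrix protein that promotes synapses, at 863, and Glul, glutamine synthetase, at 656 CPM per kilobase. The lowest were Sox9, a transcription factor of the astrocyte lineage, at 9.61 and Slc7a11, the cystine and glutamate exchanger, at 4.54 CPM per kilobase. The defining astrocyte transcripts were thus present in every library.

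**Figure D1:**
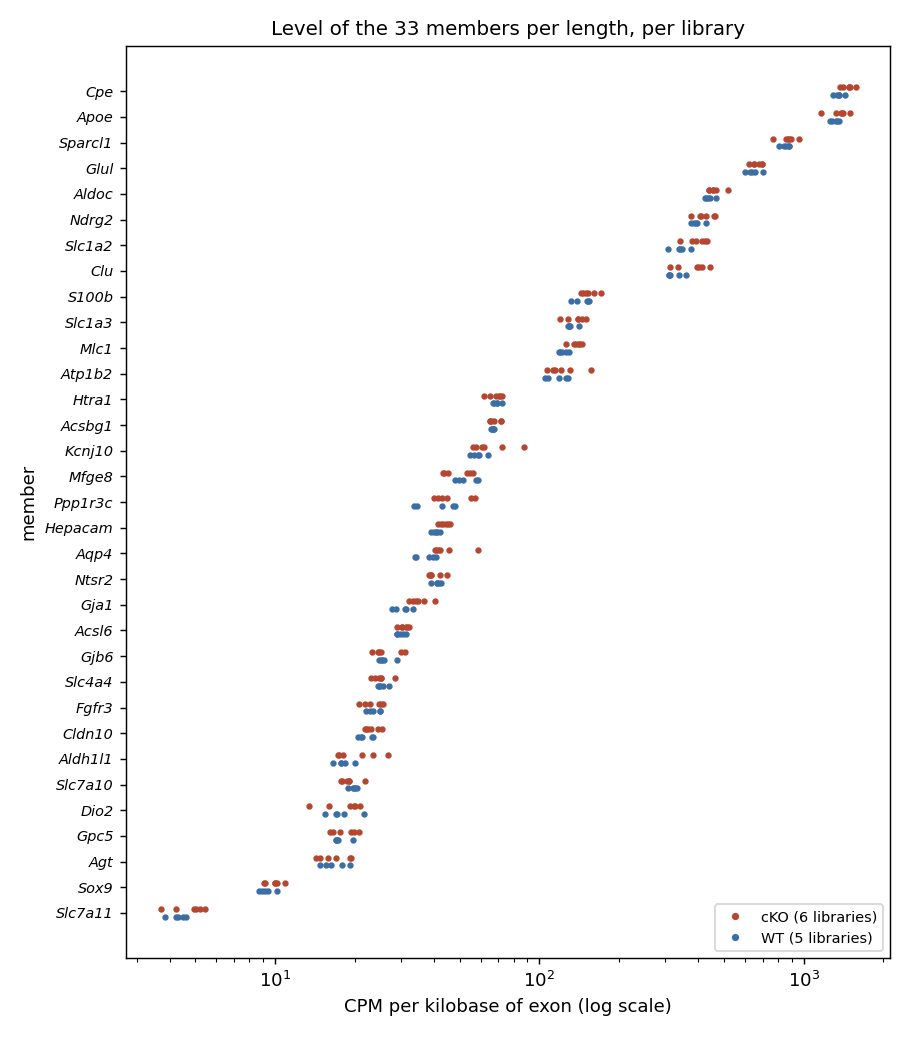
Level of each of the 33 genes per length, in CPM per kilobase of exon on a log scale, with 1 point per library (red above, labelled cKO; blue below, WT). Genes are ordered by their mean, from Cpe at 1419 to Slc7a11 at 4.54 CPM per kilobase, and the spread between libraries is small beside the distance between most genes.

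In the comparison of genotypes, 27 of the 33 members had a higher and 6 a lower value in the cKO-labelled libraries, where 50% of all 16587 genes tested were higher. The median log2 fold change of the members was 0.07, and that of all genes tested was under 0.01 in size. By edgeR no member passed the test over all genes (adjusted p of 0.352 or higher), nor did any other gene. Before adjustment, 7 members were higher and 0 lower with a p under 0.05, which is 21.2% of the members, against 3.84% of all genes tested that were higher at that level and 5.35% that were lower. These 7 were Mlc1, Gja1, Slc1a2, Clu, Aqp4, Hepacam and Cpe. The members were chosen with earlier results of these data known, so these shares describe the list and are no test of it. DESeq2, the alternative test, called 1 member, Mlc1, and 0.181% of all genes in that direction, and 0 members and 0.193% of all genes in the other. The scaling of the libraries moved these counts. At an unadjusted p under 0.05, 637 genes were higher and 887 lower after TMM scaling, and 262 and 1388 with library totals only. With library totals only, 24 members had a higher value and 5 were higher at that level, against 1.58% of all genes. The share of all genes with a higher value was not counted there, so the 50% above is no baseline for the 24. Leaving out each of the 11 libraries in turn, Mlc1, Gja1, Slc1a2, Clu and Aqp4 stayed at an unadjusted p under 0.05 each time. Hepacam did not without WT replicate 4, and Cpe did not without replicate 3 labelled cKO or WT replicates 3, 4 or 5. In no member did all 6 libraries labelled cKO lie above every WT library, or all below, which 0.404% and 0.512% of all genes did.

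**Figure D2:**
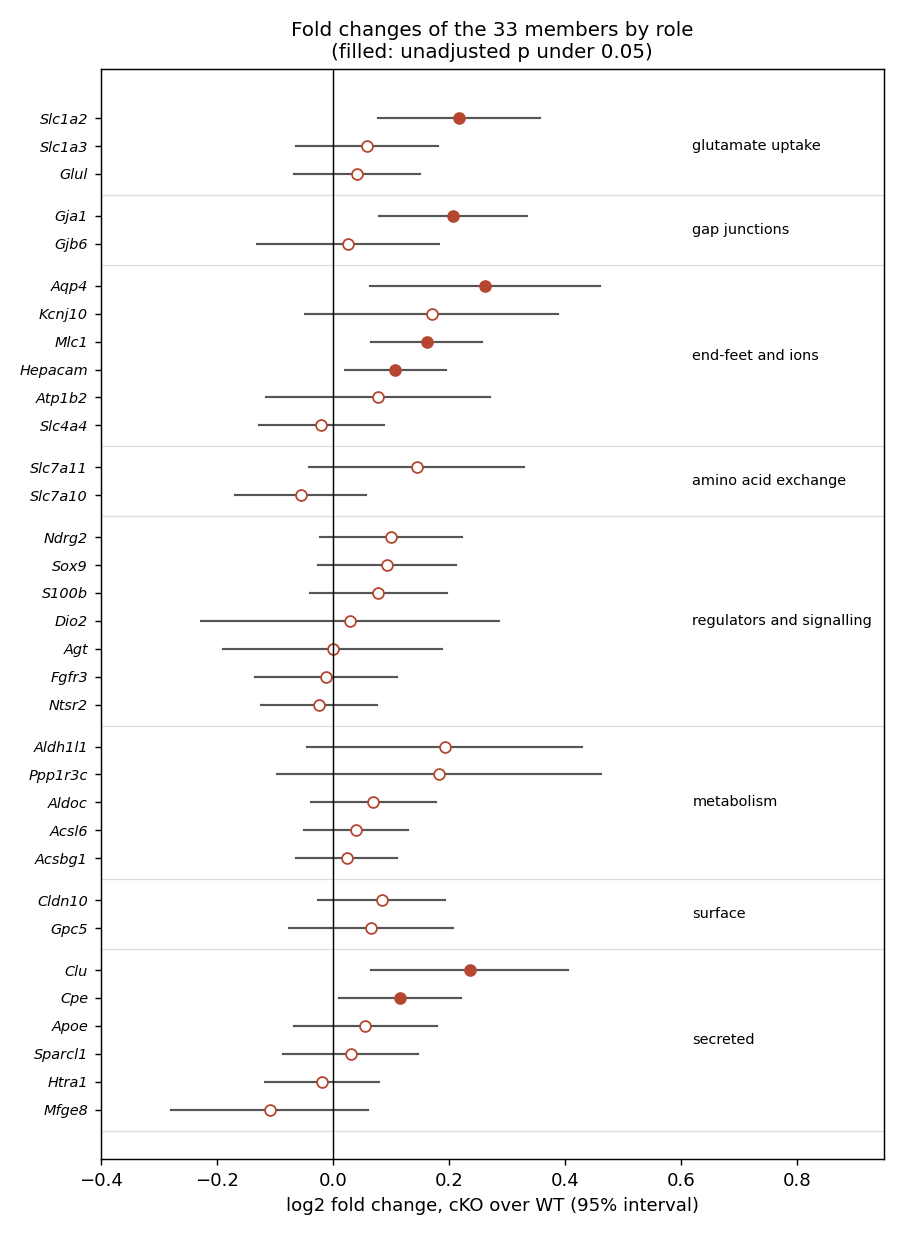
Log2 fold change of each gene, labelled cKO over WT, with its 95% interval from edgeR, grouped by role. Filled points have an unadjusted p under 0.05. They are the 7 genes Slc1a2, Gja1, Aqp4, Mlc1, Hepacam, Clu and Cpe, all to the right of 0, from 0.11 for Hepacam to 0.26 for Aqp4.

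The promoters of the 3 members of smallest p are shown here because the comparison comes nearest to a call in them. Each runs from 250 bases before the RefSeq start to 50 bases after it, in the build GRCm38.p6, with the bases after the start in capitals. The RefSeq starts of Slc1a2 and Mlc1 lie inside the longer GENCODE genes. For Slc1a2 the GENCODE gene starts at 102658659, far upstream of the window, and the bases around that start are not shown. They lie at chr15:88978504-88978803 on the minus strand (Mlc1), chr10:56377050-56377349 on the plus strand (Gja1) and chr2:102706188-102706487 on the plus strand (Slc1a2).
Mlc1: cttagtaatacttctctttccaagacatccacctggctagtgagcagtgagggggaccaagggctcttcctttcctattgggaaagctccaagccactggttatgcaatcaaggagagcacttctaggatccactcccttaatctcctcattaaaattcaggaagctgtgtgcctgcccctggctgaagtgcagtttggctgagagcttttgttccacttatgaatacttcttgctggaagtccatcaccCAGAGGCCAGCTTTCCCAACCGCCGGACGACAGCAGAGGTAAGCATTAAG
Gja1: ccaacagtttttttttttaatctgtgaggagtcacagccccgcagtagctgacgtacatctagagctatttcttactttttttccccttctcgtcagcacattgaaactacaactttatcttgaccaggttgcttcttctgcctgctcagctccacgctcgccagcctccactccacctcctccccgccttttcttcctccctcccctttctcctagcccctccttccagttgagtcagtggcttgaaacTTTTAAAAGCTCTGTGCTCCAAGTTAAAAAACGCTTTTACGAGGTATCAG
Slc1a2: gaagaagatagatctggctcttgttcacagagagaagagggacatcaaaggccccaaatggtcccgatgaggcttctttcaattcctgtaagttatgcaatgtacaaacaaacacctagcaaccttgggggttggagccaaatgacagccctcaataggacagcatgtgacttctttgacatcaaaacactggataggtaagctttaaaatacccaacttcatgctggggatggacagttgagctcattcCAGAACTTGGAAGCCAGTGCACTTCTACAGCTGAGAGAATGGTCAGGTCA
RefSeq promoters were found for 27 of the 33 members, 37 windows in all. A search of both strands for the GC box GGGCGG, the TATA box TATAAA, the NFI half-site TTGGCA, the SOX motif ACAATGG and the STAT motif TTCCNGGAA found none of them in the 3 windows above. Among all member windows the GC box was in 19 of 37, where 35.7% of all 32851 promoter windows hold it. The TATA box was in 6 of 37 against 13.6%, the NFI half-site in 4 against 14.1%, the STAT motif in 2 against 1.15% and the SOX motif in 0 against 3.66%.

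Of the glutamate genes, Slc1a2, the main glutamate transporter of the forebrain (ENSMUSG00000005089, chromosome 2, 102658659 to 102790784, plus strand, mm10), stood highest against WT. In replicates 1 to 6 labelled cKO it had 5425, 5680.2, 5139.5, 4949, 5556 and 4486 CPM, against 4539.6, 4902, 4430.2, 4028 and 4481 CPM in WT replicates 1 to 5. All libraries labelled cKO but replicate 6 lay above every WT library. The mean was 5206 ± 444 CPM in cKO-labelled and 4476 ± 312 CPM in WT libraries (SD, n = 6 and 5), and the log2 fold change was 0.22 ± 0.07 (SE; adjusted p = 0.404, edgeR). Against the 2 male WT libraries alone it was 0.15. Slc1a3, the other astrocytic glutamate transporter, had 1019.7 to 1287 CPM in the cKO-labelled libraries and 1095 to 1205 CPM in WT, with groups that overlapped and a log2 fold change of 0.06 ± 0.06 (SE), and 0.02 in the male libraries. Glul, which turns glutamate into glutamine, was at 0.04 ± 0.05 (log2 ± SE), and at -0.01 against the male WT libraries.

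Gja1, which encodes connexin 43, the main gap junction protein of astrocytes (ENSMUSG00000050953, chromosome 10, 56377330 to 56402513, plus strand, mm10), had 349, 374, 341, 331, 355 and 412 CPM in replicates 1 to 6 labelled cKO. In WT replicates 1 to 5 it had 319, 341, 322, 284 and 295 CPM. Of the cKO-labelled libraries, 4 exceeded every WT library, and the groups touched at replicates 3 and 4 labelled cKO and WT replicate 2. The log2 fold change was 0.21 ± 0.06 (SE; adjusted p = 0.394, edgeR), and 0.18 in the male libraries. Gjb6, the partner connexin 30, had 62.03 to 83.2 CPM in the cKO-labelled libraries and 66.0 to 77.5 CPM in WT, a log2 fold change of 0.03 ± 0.07 (SE).

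The end-foot and ion genes held 3 of the 7. Mlc1 and Hepacam encode membrane proteins that bind each other and are mutated in a childhood white matter disease. Mlc1 (ENSMUSG00000035805, chromosome 15, 88955884 to 88979007, minus strand, mm10) had 354, 406, 385, 396, 379 and 396 CPM in replicates 1 to 6 labelled cKO and 362, 354, 335, 342 and 332 CPM in WT replicates 1 to 5. All libraries labelled cKO but replicate 1 lay above every WT library. Its means were 386 ± 18.3 CPM in the cKO-labelled libraries and 345 ± 12.8 CPM in WT (SD, n = 6 and 5). The log2 fold change was 0.16 ± 0.05 (SE; adjusted p = 0.352, edgeR), and 0.17 in the male libraries. DESeq2 gave the gene an adjusted p of 0.0451, just inside its threshold.

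Hepacam had a narrow spread in both groups, with 142, 153, 144, 149, 139 and 152 CPM in replicates 1 to 6 labelled cKO and 141, 138, 134, 131 and 136 CPM in WT replicates 1 to 5. All libraries labelled cKO but replicate 5 lay above every WT library. Its log2 fold change was 0.11 ± 0.04 (SE; adjusted p = 0.467, edgeR). Aqp4, the water channel of the end-feet, had 253, 285, 252, 258, 262 and 365 CPM in replicates 1 to 6 labelled cKO and 254, 238, 248, 213 and 211 CPM in WT replicates 1 to 5. Replicate 6 labelled cKO stood far above the rest, and replicates 1 and 3 lay just under WT replicate 1. The log2 fold change of Aqp4 was 0.26 ± 0.09 (SE; adjusted p = 0.436, edgeR), the largest of the members. It was 0.17 without replicate 6 labelled cKO, and 0.32 in the male libraries with that replicate kept.

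Kcnj10, the potassium channel Kir4.1, was also highest in that library. It had 327, 389, 303, 333, 312 and 473 CPM in replicates 1 to 6 labelled cKO and 345, 316, 319, 296 and 307 CPM in WT replicates 1 to 5, a log2 fold change of 0.17 ± 0.10 (SE; adjusted p = 0.634, edgeR), and 0.07 without replicate 6 labelled cKO. Atp1b2, a sodium pump subunit of glia, had 643 CPM in that library and 437 to 531 CPM in the other 5 labelled cKO, against 429 to 524 CPM in WT. Its log2 fold change of 0.08 ± 0.09 (SE) became -0.0033 without it. Slc4a4, a sodium bicarbonate cotransporter, was at -0.02 ± 0.05 (log2 ± SE).

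The amino acid exchangers had values on either side of 0. Slc7a11 had 72.6, 75.3, 58.5, 51.5, 68.6 and 70.2 CPM in replicates 1 to 6 labelled cKO and 64.1, 62.6, 60.0, 53.5 and 58.7 CPM in WT replicates 1 to 5. Of the cKO-labelled libraries 4 lay above every WT library and replicate 4 lay below all of them, and the log2 fold change was 0.14 ± 0.09 (SE; adjusted p = 0.634, edgeR). Slc7a10, an exchanger of small neutral amino acids such as D-serine, was at -0.06 ± 0.05 (log2 ± SE). Of its exon bases 17.9% are shared with Lrp3 on the other strand, and whether counting used the strand is not given in the sources used here.

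No regulator or signalling gene had an unadjusted p under 0.05. Ndrg2, a stress-responsive gene much used as an astrocyte marker, had 1379, 1567, 1457, 1554, 1391 and 1274 CPM in replicates 1 to 6 labelled cKO and 1455, 1338, 1302, 1273 and 1333 CPM in WT replicates 1 to 5. Replicates 2, 3 and 4 labelled cKO lay above every WT library and the other 3 within the WT range, and its log2 fold change was 0.10 ± 0.06 (SE). Sox9 had 41.5, 45.1, 41.2, 42.1, 37.7 and 37.9 CPM in replicates 1 to 6 labelled cKO and 38.9, 42.3, 35.9, 36.9 and 37.9 CPM in WT replicates 1 to 5. Replicate 2 labelled cKO alone lay above every WT library. The log2 fold change of Sox9 was 0.09 ± 0.06 (SE), and 0.03 in the male libraries. S100b, a calcium-binding protein, was at 0.08 ± 0.06, Dio2, which activates thyroid hormone, at 0.03 ± 0.12, Fgfr3, a growth factor receptor, at -0.01 ± 0.06, and Ntsr2, a neurotensin receptor, at -0.02 ± 0.05 (log2 ± SE). Agt, the angiotensin precursor, averaged 31.7 ± 4.11 CPM in the cKO-labelled libraries and 31.7 ± 3.44 CPM in WT (SD, n = 6 and 5), with a 95% interval of its log2 fold change from -0.19 to 0.19.

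All 5 metabolic genes had a log2 fold change above 0, and none an unadjusted p under 0.05. Aldh1l1, a folate enzyme widely used to label astrocytes, had 78.2, 106, 81.5, 96.4, 78.9 and 120.4 CPM in replicates 1 to 6 labelled cKO and 90.5, 80.4, 74.7, 80.4 and 83.2 CPM in WT replicates 1 to 5. Its high values were in replicates 2, 4 and 6 labelled cKO, and the other 3 lay within the WT range. The log2 fold change of Aldh1l1 was 0.19 ± 0.11 (SE; adjusted p = 0.613, edgeR), and 0.11 without replicate 6 labelled cKO. Ppp1r3c, which targets a phosphatase to glycogen, was at 0.18 ± 0.13 (log2 ± SE), and at 0.12 without WT replicate 5. Aldoc, the glycolytic aldolase C, was at 0.07 ± 0.05, and the acyl-CoA synthetases Acsl6 and Acsbg1 at 0.04 ± 0.04 and 0.02 ± 0.04 (log2 ± SE). Acsbg1 was the steadiest member in WT, with a coefficient of variation of 0.942%, against 4.57% in the cKO-labelled libraries. Of the surface proteins, Cldn10, a claudin, was at 0.08 ± 0.05, and Gpc5, a glypican, at 0.07 ± 0.07 (log2 ± SE).

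Among the secreted proteins, Clu, the chaperone and apolipoprotein clusterin (ENSMUSG00000022037, chromosome 14, 65968483 to 65981547, plus strand, mm10), had 1074, 1384, 1414, 1524, 1151 and 1353 CPM in replicates 1 to 6 labelled cKO and 1233, 1067, 1062, 1158 and 1069 CPM in WT replicates 1 to 5. Replicates 2, 3, 4 and 6 labelled cKO lay above every WT library, and replicates 1 and 5 within the WT range. The log2 fold change was 0.24 ± 0.08 (SE; adjusted p = 0.423, edgeR), and 0.30 in the male libraries. Cpe had 3692, 3873, 4108, 3909, 3857 and 3586 CPM in replicates 1 to 6 labelled cKO and 3737, 3559, 3555, 3493 and 3361 CPM in WT replicates 1 to 5. Of the cKO-labelled libraries, replicates 1 and 6 lay below WT replicate 1 and the other 4 above every WT library, with a log2 fold change of 0.12 ± 0.05 (SE; adjusted p = 0.504, edgeR).

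Apoe had 2483 to 3193 CPM in the cKO-labelled libraries and 2683 to 2902 CPM in WT, and a log2 fold change of 0.06 ± 0.06 (SE). Sparcl1 was at 0.03 ± 0.06 and Htra1, a secreted serine protease, at -0.02 ± 0.05 (log2 ± SE). Mfge8, which bridges dying cells to phagocytes, was the member with the lowest log2 fold change, -0.11 ± 0.08 (SE; adjusted p = 0.711, edgeR), with 203 to 264 CPM in the cKO-labelled libraries and 225 to 275 CPM in WT.

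**Figure D3:**
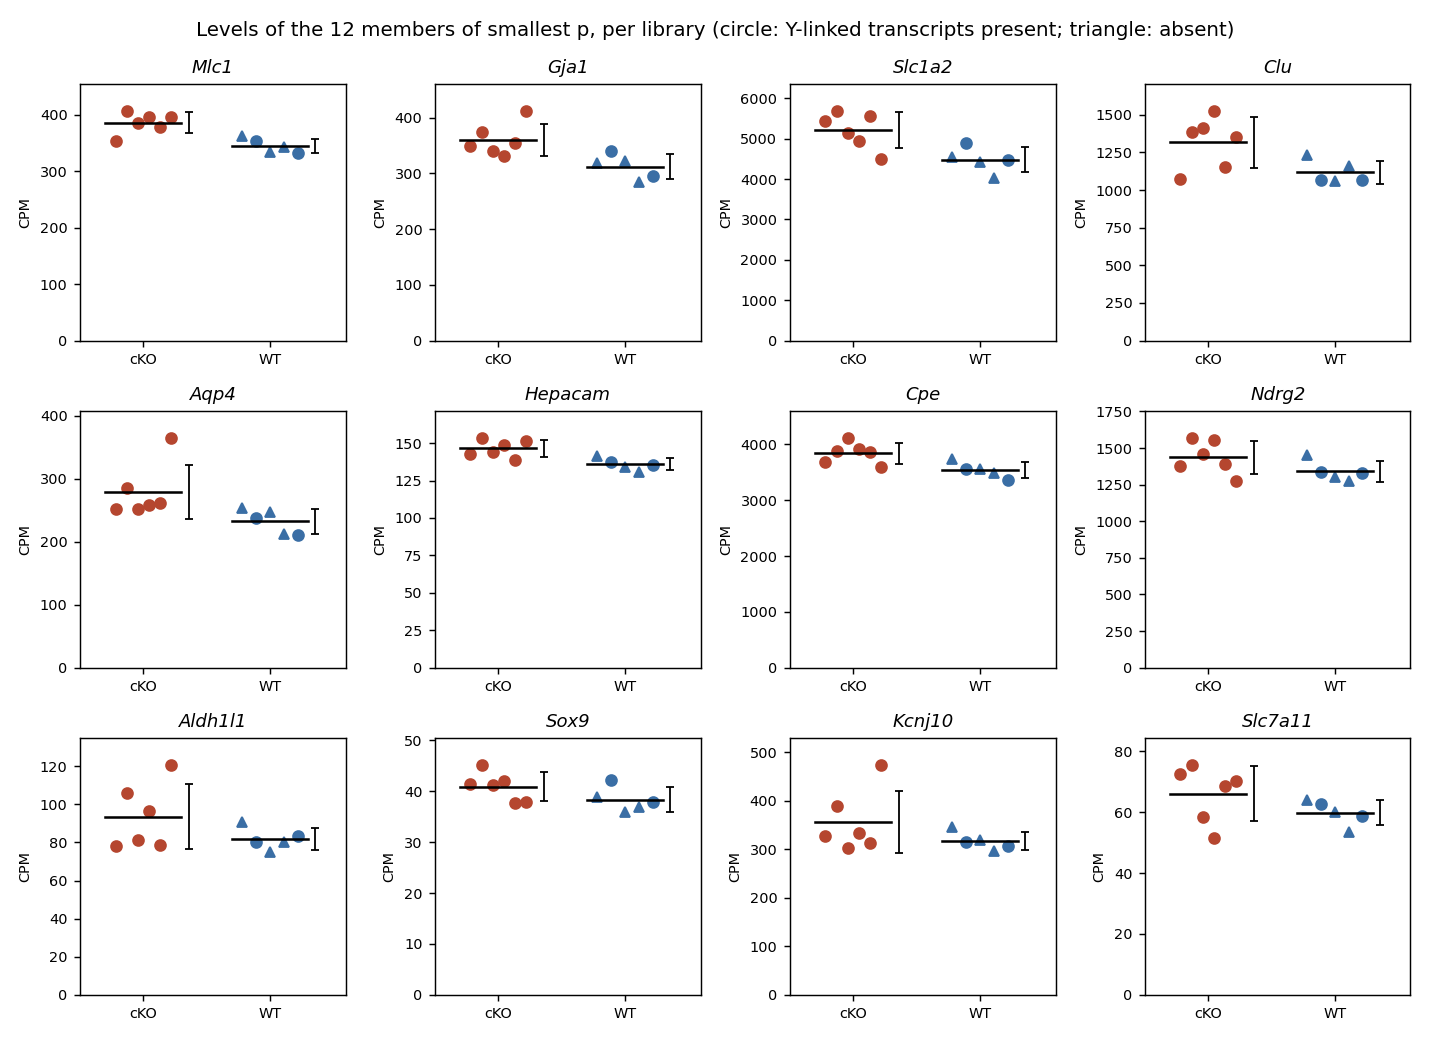
CPM of the 12 genes of smallest p in each library, labelled cKO (red, left) and WT (blue, right), with the mean as a line and the SD as a bar beside it. Circles are libraries with Y-linked transcripts and triangles those without. The groups overlap in every panel, Mlc1, Slc1a2 and Hepacam have 5 of 6 red points above all blue ones, and 1 red point is far above the rest for Aqp4 and Kcnj10.

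The members did not vary alike from library to library. Replicate 2 labelled cKO was the highest of the 11 libraries for 11 members, among them Slc1a2, Mlc1, Hepacam, Aldoc, S100b and Sox9, and the lowest for 1, Mfge8. Replicate 6 labelled cKO was the highest for 7 members, Gja1, Gjb6, Aqp4, Kcnj10, Atp1b2, Aldh1l1 and Ppp1r3c, and the lowest for 9, Slc1a3, Slc7a10, Fgfr3, Agt, Acsbg1, Gpc5, Apoe, Sparcl1 and Htra1. In WT, replicates 3, 4 and 5 were the lowest for 5, 7 and 5 members and together the highest for 1. How often each library was the highest or lowest over all genes was not counted, so this may not be particular to the members. Averaged over the 33 members, the log2 deviation from the 11-library mean was 0.03 ± 0.04 for cKO-labelled and -0.04 ± 0.05 for WT libraries (SD, n = 6 and 5). It reached 0.10 in replicate 2 labelled cKO and -0.09 in WT replicate 4.

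**Figure D4:**
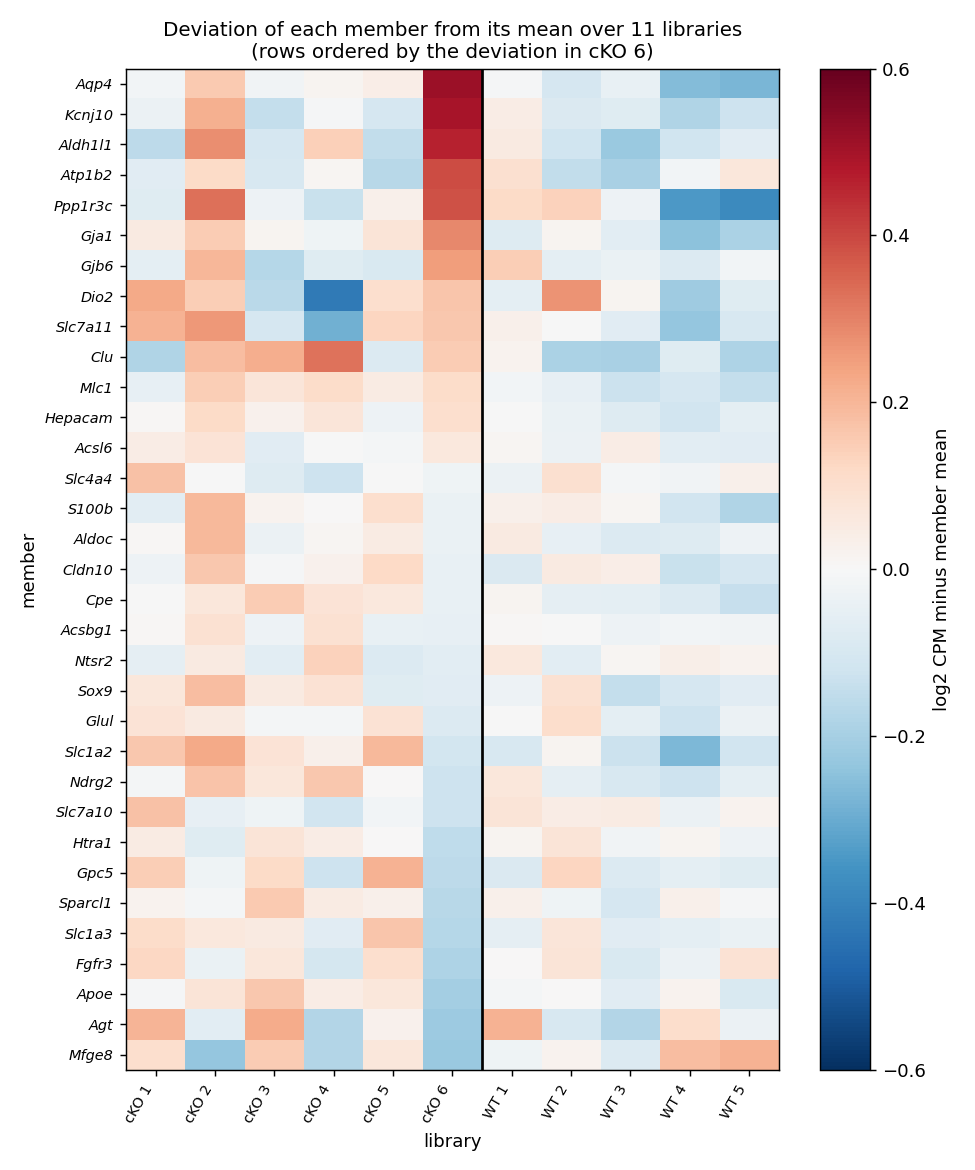
Deviation of each gene in each library from its own mean over 11 libraries, in log2 CPM, with labelled cKO libraries left of the line and WT right of it. Rows run from the highest to the lowest deviation in replicate 6 labelled cKO, which is above the mean for the genes at the top, such as Aqp4 and Kcnj10, and below it for those at the bottom, such as Apoe and Agt.

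The library with this split also had the most Gfap. Gfap had 667, 2354, 969, 1529, 769.6 and 3362 CPM in replicates 1 to 6 labelled cKO, against 1283, 680.4, 690.4, 694 and 649 CPM in WT replicates 1 to 5. Vim had 37.5, 95.2, 55.8, 81.9, 50.2 and 140 CPM in replicates 1 to 6 labelled cKO, against 56.3, 41.3, 46.0, 52.7 and 40.8 CPM in WT replicates 1 to 5. Both genes were above every WT library in replicates 2, 4 and 6 labelled cKO, and replicate 1 labelled cKO had less Vim than any WT library. Neither passed the test (edgeR, adjusted p = 0.55 for Gfap and 0.555 for Vim), and their part in the members' values was not tested. The coefficient of variation between libraries was larger in the cKO-labelled group than in WT for 29 of the 33 members. Its median was 8.09% in the cKO-labelled libraries and 5.91% in WT. The same share over all genes tested was not computed, so this is not shown to be particular to the members. Without replicate 6 labelled cKO the median log2 fold change of the members was 0.09.

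Other genes of the same cells were counted in the same way, from lists also chosen with earlier results of these data known. Over all genes tested 50% were higher. At an unadjusted p under 0.05 (edgeR), 3.84% were higher and 5.35% lower. Of 43 further astrocyte genes 34 were higher, 7 of them at an unadjusted p under 0.05, and 1 was lower at that level (Btbd17, named after its value was seen), with a median log2 fold change of 0.07. Those of smallest p were Ednrb, an endothelin receptor, at 0.26 ± 0.07, Entpd2, an ectonucleotidase, at 0.30 ± 0.08, Bmpr1b, a BMP receptor, at 0.18 ± 0.07, and Tril, a toll-like receptor accessory protein, at 0.12 ± 0.04 (log2 ± SE), none past the test over all genes. Of 9 genes of the dystrophin complex and other end-foot partners 0 were higher at an unadjusted p under 0.05 and 1 was lower, Agrn, a matrix proteoglycan, at -0.18 ± 0.07 (log2 ± SE). Of 11 measured genes around the glutamate and glutamine cycle 1 was higher, Slc1a4, a neutral amino acid transporter, at 0.11 ± 0.05 (log2 ± SE), and 0 lower. Of 7 other connexin and pannexin genes none had an unadjusted p under 0.05 in either direction.

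Markers of other cells were measured beside these, where 3.84% of all genes tested were higher and 5.35% lower at an unadjusted p under 0.05 (edgeR). The summed level of 12 neuronal markers was 13946 to 14812 CPM in the cKO-labelled libraries and 13587 to 14975 CPM in WT, with 1 marker higher and 0 lower at an unadjusted p under 0.05. All 12 microglial markers had higher values, 5 of them at that level, and summed to 764 to 1203 CPM in the cKO-labelled libraries and 771 to 874 CPM in WT. The 10 oligodendrocyte markers summed to 4598 to 6357 CPM in the cKO-labelled libraries and 4900.2 to 5884 CPM in WT, with none at that level. Of 12 meningeal markers 5 were lower and of 12 thalamic markers tested 4 were lower at that level, with none higher. DESeq2 called 4 of these meningeal markers lower (Igf2, Aldh1a2, Slc13a4 and Slc6a13) and 2 of the thalamic ones (Zic1 and Ramp3). The median log2 fold change was -0.38 for the meningeal and -0.16 for the thalamic markers, and -0.11 and -0.21 in the male libraries. For the microglial markers it was 0.205, and 0.26 in the male libraries, against 0.07 for the members in both. Of 10 choroid plexus and ependymal markers 2 and of 10 pericyte and smooth muscle markers 4 were lower, and 1 pericyte marker, Rgs5, was higher. None of 8 oligodendrocyte precursor, 10 endothelial or 12 hippocampal neuron markers reached that level. No marker of any of these lists was at 0 in every library, and their part in the members' values was not tested. The 33 members summed to 24842 to 27881 CPM in the cKO-labelled libraries and 24067 to 25613 CPM in WT.

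In the male libraries, 6 labelled cKO and 2 WT, the median log2 fold change of the members was 0.07. There 3 members, Aqp4, Mlc1 and Clu, had an unadjusted p under 0.05 (edgeR), against 2% of all genes in that direction, with 0 members lower, against 3.58%. With a sex term in all 11 libraries there were 5, the same 3 with Gja1 and Cpe, against 2.59% of all genes higher, and 0 lower, against 4.36%. None passed an adjusted p under 0.05 in either fit. The 4 others of the 7 had values of 0.10 to 0.18 in the male libraries. In 11 members the log2 fold change moved by over 1.5 times or turned there, none of the 7 among them, and Gpc5 was at 0.0038, Fgfr3 at -0.08, Slc4a4 at -0.07 and Agt at 0.08. Leaving out 1 library moved 23 members by over 1.5 times or turned them, of the 7 only Aqp4.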

How the data were processed

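Messenger RNA was sequenced from strand-marked libraries (per the labels' protocols). For the processing, the submitters' notes list bcl2fastq 2.17.1.14 and mm10, while aligner, counter, annotation and strand setting were not given in the sources used here. Raw whole-number counts for each Ensembl gene were deposited by the authors. A symbol was matched to 30566 of 30681 genes. Coordinates and exon lengths are from GENCODE M21 (mm10).

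Genes kept by filterByExpr (16587) were scaled by TMM, and CPM was computed here on the TMM-scaled totals. The genotype was tested with edgeR's 2-sided robust quasi-likelihood F test, Benjamini-Hochberg adjusted over all genes, at 0.05. SEs were derived from each log2 fold change with its F value, and intervals are 95%. R 4.3.3, edgeR 4.0.16, limma 3.58.1 and DESeq2 1.42.0 were used, and the fits were tested on simulated data. The members and gene lists were chosen with earlier results of these data known. Every member is named, with the values of each library for the 12 of smallest p, and up to 4 genes of smallest p are named from other astrocyte lists. Replicates all differed by more than sampling noise (smallest chi-square per degree of freedom 5.31). Of the members 8 share exon bases with another annotated gene, most in Slc7a10 (17.9%), Fgfr3 (13.9%) and Aldh1l1 (13.4%). Alternatives were other scaling, filters and tests, a replicate block, each library left out and sex.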

Additional observations from a re-analysis of the deposited data

Results flagged for a closer look

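Within each group, every member was examined for a library whose gap to its nearest neighbour was large against the group's range (Dixon's criterion at 95%). Of 66 groups of values 6 met it. The nominal rate of about 1 in 20 holds for independent, normally distributed groups, while these groups share the same libraries. The rate over all genes was not computed, so the count is not shown to be particular to the members. Aqp4 was 365 CPM in replicate 6 labelled cKO, against 252 to 285 CPM in the other 5. Slc7a10 was 46.2 CPM in replicate 1 labelled cKO, against 37.5 to 40.4 CPM in the others. Aldoc was 1684 CPM in replicate 2 labelled cKO, against 1428 to 1521 CPM in the others. In WT, replicate 2 had the highest Slc1a3, at 1205 CPM against 1095 to 1116 CPM, and the highest Gpc5, at 87.8 CPM against 75.5 to 76.8 CPM. WT replicate 1 had the highest Gjb6, at 77.5 CPM against 66.0 to 69.2 CPM.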

How the results depend on the processing

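Of the 33 members 23 kept the direction of their log2 fold change under all 21 alternatives, among them all 7 of unadjusted p under 0.05. The cause of the turns of the other 10 was not tested. Atp1b2, at 0.08, turned only in the fits that leave out replicate 6 labelled cKO, where it was highest. Htra1, at -0.02 and lowest in that library, also turned without it, to 0.0091. With library totals only, Acsbg1 was -0.0046, Agt -0.0285 and Gjb6 -0.0019. Agt was -0.0039 with upper-quartile factors. With limma-voom, Fgfr3 was 0.01 and Gjb6 -0.009. With a sex term and in the male libraries, Dio2 was -0.0815 and -0.0791, Glul -0.0148 and -0.0125, and Ntsr2 0.0104 and 0.0129. Leaving out each library in turn gave -0.0467 to 0.0526 for Agt, -0.0033 to 0.1187 for Atp1b2, -0.0218 to 0.1066 for Dio2, -0.0385 to 0.0227 for Fgfr3, -0.0251 to 0.0645 for Gjb6, -0.0356 to 0.0091 for Htra1 and -0.0554 to 0.004 for Slc4a4.

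Same-numbered libraries correlated at -0.32 to 0.21 in their deviations. With so few pairs this cannot settle whether the replicate numbers pair the samples. The replicate block could be fitted only without replicate 6 labelled cKO, since WT has no replicate 6, so it changed both the block and that library. With it, Atp1b2 was -0.002, Dio2 -0.0096, Fgfr3 0.0218, Gjb6 -0.0287 and Htra1 0.0087. Leaving out the same library with no block gave -0.0033 for Atp1b2, 0.0227 for Fgfr3, -0.0251 for Gjb6 and 0.0091 for Htra1. With the block 8 members were higher at an unadjusted p under 0.05, as were 3.28% of all genes tested, and no gene was called. Without that library and with no block there were also 8.

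Over all genes edgeR called 0 higher and 0 lower (1524 at an unadjusted p under 0.05). DESeq2 called 30 higher and 32 lower, with 1 member, Mlc1. Without a filter edgeR called 1 higher and 2 lower, and with library totals only 1 lower. With each library left out it called 0 to 1 higher and 0 to 14 lower, no member among them, the 14 without WT replicate 5. The 7 members became 3 in the male libraries, where only 2 WT libraries remain, and 5 to 8 with each library left out, while the share of all genes that were higher at that level was 2% in the male libraries and 2.51% to 5.41% with each library left out. The median of the members stayed between 0.04 and 0.10 under all 21 alternatives. The biological coefficient of variation over all genes was 9.56%, and the median SE of a log2 fold change was 0.08.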
